A study of Mus musculus with 8 samples.

Results

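Efna3, Slc41a2, Dpy19l3 and Atp11a are 4 mouse genes for membrane proteins whose reads in liver RNA were lower after a 24 h fast. They were chosen on the same comparison that is described here, from read counts of fasted and fed livers, so their differences are given as values with no test. A row of the deposited table, which is one long non-coding transcript of the NONCODE catalogue, counted as a row of a gene where it shared exon bases with it on either strand. The 4 genes hold 7 of the 83057 rows, among 19398 annotated genes with a row (8150 of them protein-coding). Rows within 20 kb that shared no exon bases were taken as neighbours.

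The study sequenced total RNA of whole liver from male C57BL/6 mice of about 20 weeks. The 4 ad libitum mice had free access to food and the 4 fasted mice had none for 24 h, and all were killed at 10 am after random assignment of co-housed animals. Each mouse gave one stranded total-RNA library from 1 µg of RNA. From the labels, the aim was to compare liver transcripts between fed and fasted animals.

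Efna3 encodes ephrin-A3, a lipid-anchored ligand on the cell surface that binds Eph receptor tyrosine kinases of neighbouring cells, so that signals can run in both cells. Slc41a2 encodes a magnesium transporter, Dpy19l3 an enzyme of the endoplasmic reticulum that attaches mannose to tryptophans of thrombospondin repeats, and Atp11a a P4-ATPase, a flippase that moves phosphatidylserine to the inner leaflet of the plasma membrane. P4-ATPases of this kind need a CDC50 subunit, encoded by the Tmem30 genes, to leave the endoplasmic reticulum.

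The bases just upstream of the 4 genes are shown because the rows that carry their signal lie far from the start. They come from RefSeq windows on GRCm38.p6 (4 of 4 genes matched), read 5′ to 3′ on the strand of the gene and ending at the base before the GENCODE gene start. Capitals mark matches, on either strand, to any of 7 motifs, none of which overlaps another here. They are GGGCGG for the GC box, CCAAT for the box of that name, CACGTG for the E-box and TGACG for the cyclic AMP response half-site. The others are TGTTTAC for the FOXO site, TATAAA for the TATA box and TCACNCCAC for the sterol response element.
Efna3 (chr3:89322966-89323189, minus strand): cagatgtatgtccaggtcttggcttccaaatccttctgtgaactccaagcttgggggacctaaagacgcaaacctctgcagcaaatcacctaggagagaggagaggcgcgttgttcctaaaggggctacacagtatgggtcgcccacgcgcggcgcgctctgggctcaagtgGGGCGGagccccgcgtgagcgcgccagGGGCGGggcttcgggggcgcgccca
Slc41a2 (chr10:83337883-83338067, minus strand): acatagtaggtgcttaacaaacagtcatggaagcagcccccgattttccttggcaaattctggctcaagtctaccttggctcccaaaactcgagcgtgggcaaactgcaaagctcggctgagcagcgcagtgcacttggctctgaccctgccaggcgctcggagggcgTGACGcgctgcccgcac
Dpy19l3 (chr7:35754455-35754704, minus strand): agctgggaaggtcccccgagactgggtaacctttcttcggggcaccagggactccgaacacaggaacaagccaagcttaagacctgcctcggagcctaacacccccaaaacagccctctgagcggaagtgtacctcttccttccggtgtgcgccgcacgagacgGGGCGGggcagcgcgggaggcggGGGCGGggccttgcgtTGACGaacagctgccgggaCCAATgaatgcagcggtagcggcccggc
Atp11a (chr8:12756766-12757013, plus strand): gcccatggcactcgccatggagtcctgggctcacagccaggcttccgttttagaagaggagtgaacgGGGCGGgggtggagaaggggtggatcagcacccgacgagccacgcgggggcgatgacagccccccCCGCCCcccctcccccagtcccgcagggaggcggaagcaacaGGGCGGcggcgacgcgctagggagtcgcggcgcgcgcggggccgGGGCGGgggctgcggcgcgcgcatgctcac

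Counts of motifs refer to the 250 bases upstream of the RefSeq start, of which 26 bases for Efna3, 65 for Slc41a2 and 2 for Atp11a lie past the GENCODE start and are not printed. The GC box was found 3 times for Efna3, of which 1 is in the bases left out. It was found 2 times for Dpy19l3, 4 times for Atp11a and 0 times for Slc41a2, and 32.7% of 32851 mouse windows hold it. Slc41a2 and Dpy19l3 each held 1 TGACG, found in 17.8% of windows, and Dpy19l3 held 1 CCAAT, found in 33.8%. CACGTG (6.02% of windows), TGTTTAC (3.17%), TATAAA (12.4%) and TCACNCCAC (1.05%) were not among the letters of the 4 windows. The G and C content was 63.6% for Efna3, 59.6% for Slc41a2, 65.6% for Dpy19l3 and 74.4% for Atp11a, against a median of 52.4%. A match is a description of letters and says nothing about binding.

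Without the mitochondrial 16S rRNA, the libraries held 51107745 to 68691606 reads in the ad libitum group and 90243439 to 119486211 reads in the fasted group. Fasted replicates 1 to 3 stood apart from fasted replicate 4. The first principal component (57.6% of the variance) placed the ad libitum group at -44.3 to -37.8, fasted replicate 4 at -10.7 and fasted replicates 1 to 3 at 55.3 to 60.7. Among rows with 21 to 200 reads, odd counts made up 16.54 to 17.84% in fasted replicates 1 to 3, 10.78% in fasted replicate 4 and 9.21 to 10.33% in the fed group. Values of the 4 genes are therefore also given for fasted replicate 4 alone and without it. All levels are CPM, read counts relative to the TMM-adjusted size of the library. Group values are mean ± SD with n = 4, and a fold change is the edgeR log2 fold change with its SE, fasted against ad libitum.

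The signal of Efna3 was near its end after the fast. Efna3 (chr3:89313899-89322965, minus strand) gave 763, 218, 1146 and 697 reads in the fed mice (ad libitum replicates 1 to 4) and 62, 42, 34 and 30 reads in fasted replicates 1 to 4. In CPM these were 11, 3.83, 23 and 9.88 against 0.505, 0.316, 0.414 and 0.370. The groups did not overlap, and the lowest ad libitum library was 7.58-fold above the highest fasted one. The mean went from 11.9 ± 8.03 to 0.401 ± 0.080 CPM, which left 3.36% of the ad libitum level (log2 fold change -4.89, SE 0.61). Fasted replicate 4 alone gave -5.00 and the other fasted libraries -4.86, so the difference was as large in the library that lay nearest to the fed group.

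Slc41a2 (chr10:83230848-83337882, minus strand) had by far the most reads of the 4 genes. It gave 9719, 3711, 9413 and 9324 reads in the fed mice and 2771, 2945, 1318 and 2074 in fasted replicates 1 to 4. These are 140, 65.2, 189 and 132 CPM against 22.6, 22.1, 16.1 and 25.6 CPM. No fasted library reached the lowest ad libitum library, which lay 2.55-fold above the highest of them. The mean went from 132 ± 50.9 to 21.6 ± 3.99 CPM, 16.4% of the ad libitum level, with a log2 fold change of -2.61 (SE 0.33). It was -2.36 in fasted replicate 4 and -2.71 without it.

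Dpy19l3 (chr7:35685165-35754454, minus strand) was the steadiest of the 4 among fed mice. Its reads were 798, 658, 750 and 754 in the ad libitum libraries and 299, 242, 150 and 226 in the fasted ones. In CPM they were 11.5, 11.6, 15.1 and 10.7 against 2.43, 1.82, 1.83 and 2.79. The ad libitum libraries spanned 1.41-fold and the fasted ones 1.53-fold, with a gap of 3.84-fold between the groups. The mean of 12.2 ± 1.94 CPM stood against 2.22 ± 0.477 CPM, or 18.2% (log2 fold change -2.46, SE 0.17). Fasted replicate 4 was the highest fasted library, at -2.13, and the value without it was -2.59.

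Atp11a (chr8:12757014-12868728, plus strand) gave 832, 242, 751 and 752 reads in the fed mice and 316, 239, 186 and 174 in fasted replicates 1 to 4. The levels were 12, 4.25, 15.1 and 10.7 CPM against 2.57, 1.80, 2.27 and 2.15 CPM. The groups came closest here, at 1.65-fold between ad libitum replicate 2 and fasted replicate 1, and still did not overlap. The mean was 10.5 ± 4.55 CPM in ad libitum and 2.20 ± 0.321 CPM in fasted livers, which is 20.9% (log2 fold change -2.26, SE 0.36). Fasted replicate 4 gave -2.29 and the other fasted libraries -2.25.

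**Figure D1:**
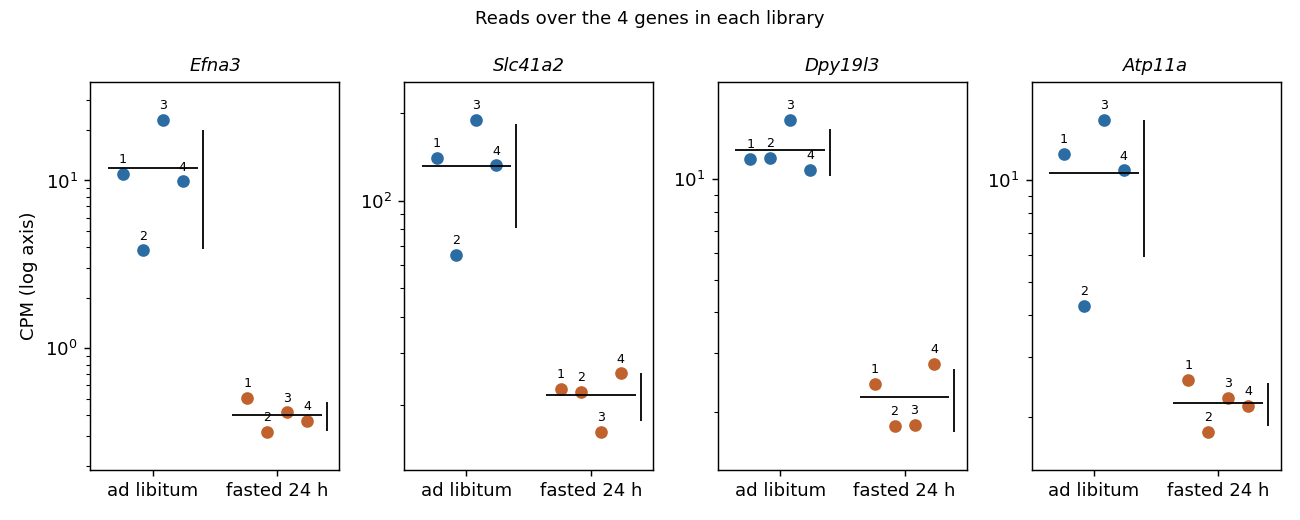
Levels of the 4 genes in CPM on log axes, one panel a gene with its own axis, with each numbered point a library, horizontal lines the group mean and vertical lines the SD (n = 4). All fasted points lie below all ad libitum points, ad libitum replicate 3 is the highest point in each panel, and ad libitum replicate 2 lies low for Efna3, Slc41a2 and Atp11a but not for Dpy19l3.

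Only Efna3 came near the word lost, since Slc41a2, Dpy19l3 and Atp11a kept 16.4 to 20.9% of their ad libitum level. Of 13120 genes tested, 11.3% were called lower in fasted liver (edgeR quasi-likelihood, adjusted p under 0.05) and 13.6% higher, 13.1% did not overlap on the lower side and 0.396%, or 52 genes, had a log2 fold change below -2. The 4 genes are among those 52 by the way they were chosen. The median log2 fold change of all tested genes was 0.01. In whole liver, fewer cells of a type and less RNA per cell cannot be told apart.

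The ad libitum mice differed among themselves in a shared order. Efna3, Slc41a2 and Atp11a each ranked ad libitum replicates 2, 4, 1 and 3 from low to high, and Dpy19l3 ranked them 4, 1, 2 and 3. Ad libitum replicate 2 stood at 0.348 of the median of the other ad libitum libraries for Efna3, 0.354 for Atp11a and 0.465 for Slc41a2, but at 1.00 for Dpy19l3. Across all tested genes, 4.96% had ad libitum replicate 2 under 50% of that median. The highest fed library was 6.01-fold above the lowest for Efna3, 3.55-fold for Atp11a and 2.90-fold for Slc41a2. The fasted libraries spanned 1.43-fold to 1.6-fold over the 4 genes. Over all 8 libraries the log2 CPM of the genes were correlated pair by pair with Pearson's r of 0.91 (Atp11a with Dpy19l3) to 0.99 (Efna3 with Slc41a2), values that the choice of the genes fixes in large part.

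The rows show which piece of each gene was counted. For Slc41a2 it was 1 row of a single exon, chr10:83230849-83233717, which lies on the strand of the gene within its last exon and covers 2719 bases of 3′ UTR and 150 coding bases. For Dpy19l3 it was again 1 row of a single exon on the strand of the gene, chr7:35685505-35688187, whose 2683 bases lie wholly in the 3′ UTR. For Atp11a the row with most reads, chr8:12867926-12868728, has 3 exons on the strand of the gene and ends at the last base of the 3′ UTR. Per kb of these rows, Slc41a2 stood at 45.9 ± 17.7 CPM in ad libitum and 7.52 ± 1.39 in fasted livers, Atp11a at 11.5 ± 5.06 and 2.25 ± 0.332, Dpy19l3 at 4.55 ± 0.724 and 0.826 ± 0.178, and the row of Efna3 at 4.30 ± 2.90 and 0.145 ± 0.0289. In fed livers Slc41a2 was thus highest per length, and the levels per kb of Dpy19l3 and Efna3 differed by less than the spread of Efna3.

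Efna3 was read only from the opposite strand. Its row, chr3:89314386-89319727, has 4 exons and 2771 bases of transcript on the plus strand, while the gene lies on the minus strand. The exons of this row are not given, so only its first and last base were compared with the gene. The base chr3:89314386 lies in the last exon of Efna3, and chr3:89319727 lies in none of its exons. A longer row of 5 exons, chr3:89303248-89319727, ends at the same base. Its exons are not given either, neither of its end bases lies in an exon of Efna3, and it was not summed into the gene. That row gave 10.3, 3.73, 23.4 and 8.54 CPM in the ad libitum libraries and 0.472, 0.240, 0.244 and 0.197 CPM in the fasted ones (log2 fold change -5.27, SE 0.69). Its counts follow those of the shorter row library by library, and reads in exons that both rows hold may be counted in each. The use of strand in the authors' counting is not given in the sources used here. Among 52 pairs of single-exon rows on opposite strands, with at least 90% overlap and 80 reads, the median ratio of their reads was 1.12. Of these pairs 44.2% lay within 1.1-fold. Rows of several exons, such as that of Efna3, were not among the pairs. With the use of strand not given, reads of Efna3 and of an antisense RNA cannot be told apart. The same limit holds for genes named below that were read only from rows on the opposite strand. Among them are Efna4, Efnb2, Nipa1, Cnnm2, Cnnm3, Nipal3, Slc33a1, Slc27a2, Tmem30b, Garnl3, Trf, Fgg, Hnf4a, Ahsg and Reln.

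Atp11a also had rows on the opposite strand, and the reads of those described here are part of its summed level. The same-strand row alone kept 19.6% of its ad libitum level, against 20.9% for the sum. The row of the antisense gene Gm15347, chr8:12860358-12877344, gave 1.04, 0.598, 1.73 and 0.878 CPM in the ad libitum libraries and 0.489, 0.346, 0.463 and 0.247 CPM in the fasted ones. It did not overlap between the groups either, though its log2 fold change of -1.44 (SE 0.32) was smaller than the -2.35 (SE 0.37) of the same-strand row, and in fasted replicate 4 alone it was -2.07 against -2.28. A pair of rows of Gm15350, from chr8:12828335 on, held at most 16 reads in any library and were not tested. Of the 7 rows of the 4 genes 5 passed the filter on low counts, and of 40840 rows tested 9.97% did not overlap on the lower side.

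The tested rows beside Efna3, Slc41a2 and Dpy19l3 had smaller log2 fold changes than any of the 4 genes, with 1 row beside Efna3 closest in size. The choice of the 4 genes fixes this difference in large part. Of 19 neighbour rows 7 were tested, and edgeR called 0 higher and 3 lower, where 9.55% and 7.67% of all 40840 tested rows were called higher and lower. None was higher at an unadjusted p under 0.05, nor called higher with DESeq2 or limma-voom. The row called with the largest difference, chr3:89298606-89300191, lies 13.71 kb past the end of Efna3 on the same strand, and was assigned to no GENCODE gene. It gave 1.07, 1.83, 1.12 and 1.73 CPM in ad libitum and 0.423, 0.346, 0.195 and 0.395 CPM in fasted livers. These groups did not overlap, and unlike Efna3 the row was highest in ad libitum replicate 2. It fell by 2.08 on the log2 scale (SE 0.28, edgeR adjusted p = 2.2e-04), and in fasted replicate 4 alone the log2 fold change was -1.85 (edgeR adjusted p = 0.041), where 1.23% of all rows were called lower. A row of 3 exons only 0.35 kb past the end of Efna3, on the opposite strand, had 40 reads in the ad libitum libraries and 2 in the fasted ones. Its groups did not overlap, but it was below the filter on low counts and was not tested. An untested row of Gm22642, 11.17 kb past the end of Efna3 on the opposite strand, went the other way. That row had 3 reads in the ad libitum libraries and 50 in the fasted ones, with 1 in fasted replicate 4, and its groups overlapped.

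On the other side of Efna3, 14.88 kb upstream, a row of the non-coding gene 4731419I09Rik that also overlaps Efna4 and Adam15 went from 0.792 ± 0.0835 to 0.831 ± 0.0952 CPM (log2 fold change 0.06, edgeR adjusted p = 0.88). Efna4, another ephrin-A ligand, is read from this row alone, on the opposite strand. Near Slc41a2, 6.29 kb upstream, a row of 2 exons fell by 0.52 on the log2 scale (edgeR adjusted p = 0.014), and a row of 3 exons with the same ends had a log2 fold change of -0.28 (edgeR adjusted p = 0.18). Near Dpy19l3, about 17.9 kb upstream, 1 of a pair of nearly identical rows of Gm26790 fell by 0.38 on the log2 scale (edgeR adjusted p = 0.040) and the other had -0.24 (edgeR adjusted p = 0.35). The latter turned to 0.27 in fasted replicate 4 and was called without it (-0.47, edgeR adjusted p = 0.0099). The call of the former was lost (edgeR adjusted p 0.062 to 0.11) without any one of the ad libitum libraries and of fasted replicates 1, 2 and 3, and the Slc41a2 one without ad libitum replicate 1 (0.052). A row within Zfp507 at the same place had a log2 fold change of 0.05 (edgeR adjusted p = 0.90). No neighbour row of Atp11a was tested, and untested neighbours held at most 20 reads in a library.

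**Figure D2:**
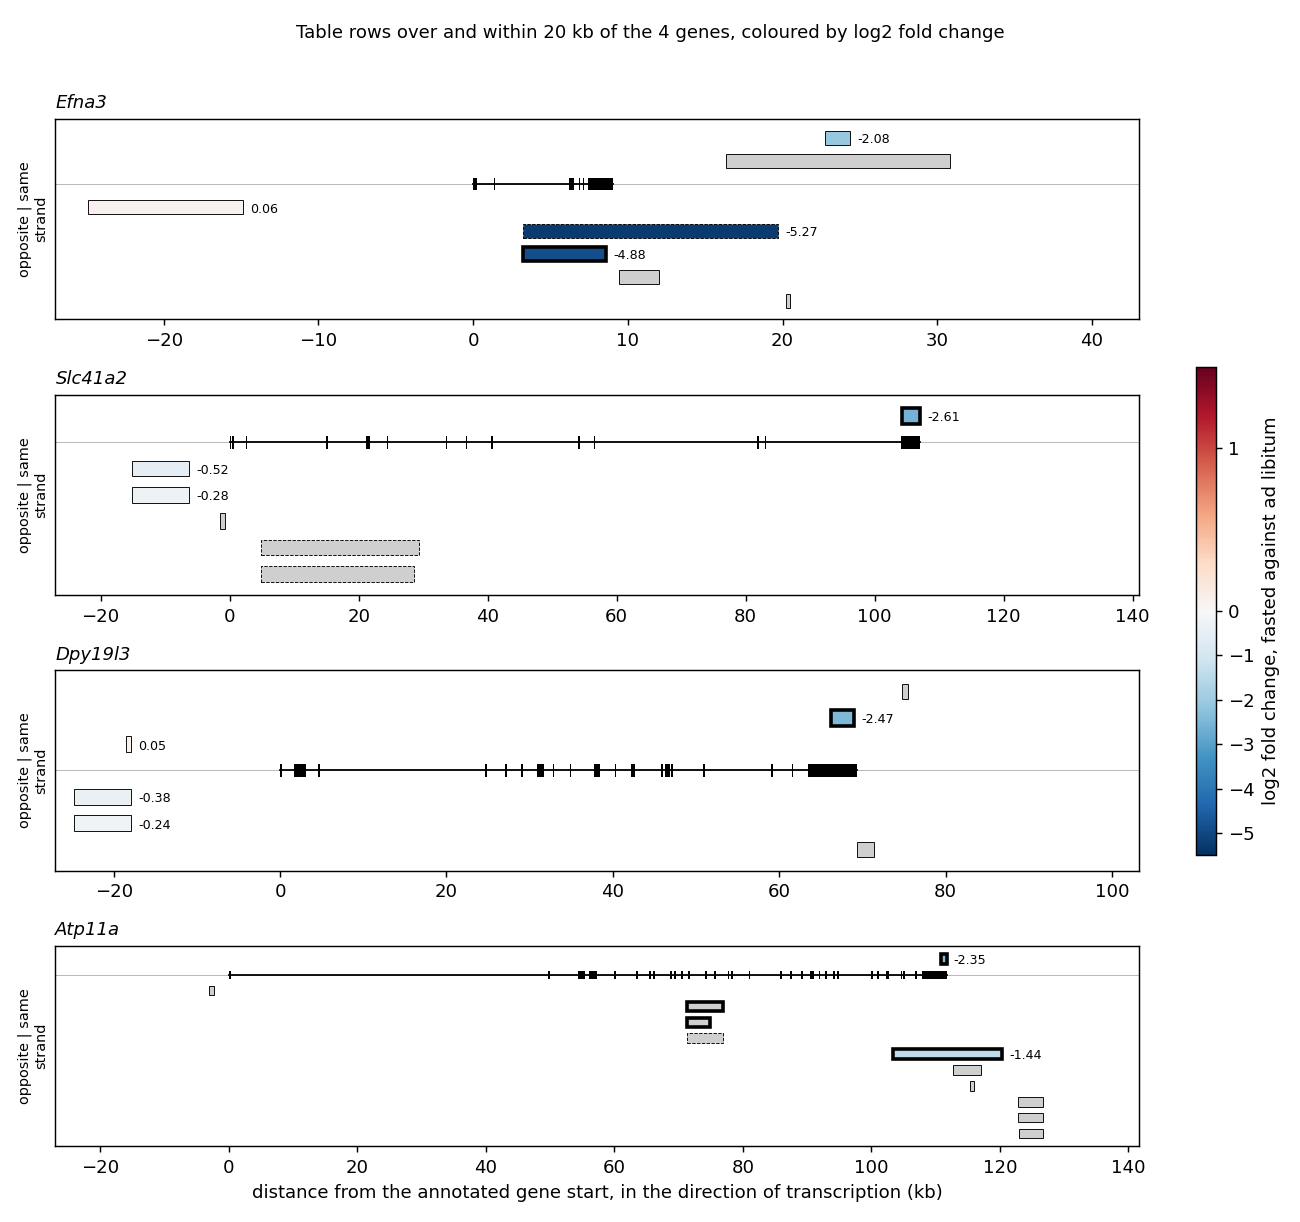
Table rows over the 4 genes and within 20 kb of them, by distance in kb from the annotated gene start in the direction of transcription. Black marks are exons of the gene, bars above the line are rows on its strand and bars below it rows on the opposite strand, coloured and numbered by log2 fold change and grey where not tested. Thick outlines mark rows of the gene and broken outlines rows that only span an exon. The rows of the gene carry -4.88 (Efna3), -2.61 (Slc41a2), -2.47 (Dpy19l3) and -2.35 and -1.44 (Atp11a), and the neighbours lie between -0.52 and 0.06 apart from the one at -2.08.

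No other tested ephrin and no tested Eph receptor was called, where edgeR called 24.9% of all tested genes. Of the 7 other ephrin genes 3 were tested and 0 were called by edgeR, DESeq2 or limma-voom (1 had an unadjusted p under 0.05), with a median log2 fold change of 0.30. Efna5 went from 1.68 ± 0.398 to 2.29 ± 0.246 CPM (log2 fold change 0.46, edgeR adjusted p = 0.080), and Efnb2, a transmembrane ephrin, from 2.14 ± 0.450 to 2.64 ± 0.987 CPM (0.30, edgeR adjusted p = 0.43). Efna5 was called without ad libitum replicate 3 (edgeR adjusted p = 0.027) and from its most abundant row alone (0.045). Among 14 Eph receptors 3 were tested and 0 were called by the same tools, with 0 at an unadjusted p under 0.05. Their log2 fold changes were 0.15 for Epha3, 0.47 for Epha4 and -0.67 for Epha7, with edgeR adjusted p of 0.74, 0.42 and 0.19. All 3 receptors stood below 1 CPM in both groups. Of 15 tested partners of Eph signalling, among them Fyn and Vav2, edgeR called 0 (1 at an unadjusted p under 0.05, Vav2, which DESeq2 called with a log2 fold change of -0.27), and the median was -0.08. Without fasted replicate 4 edgeR called Vav2 (-0.30, adjusted p = 0.035) and Kalrn (0.63, adjusted p = 0.0058), and without ad libitum replicate 2 Vav2 (-0.33, adjusted p = 0.032).

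Of 19 listed relatives of Slc41a2 in magnesium transport 14 had a row and 12 were tested. Of these 12, edgeR called 5 lower and 0 higher, or 41.7% called against 24.9% of all tested genes in either direction and 11.3% lower. With edgeR 1 had a log2 fold change above 0 at an unadjusted p under 0.05, and DESeq2 and limma-voom gave the same 5 and 0. Slc41a1, the closest relative, fell from 2.26 ± 0.346 to 1.20 ± 0.314 CPM (log2 fold change -0.92, SE 0.21, edgeR adjusted p = 0.0085). Magt1, a magnesium transporter that also serves protein glycosylation, fell from 55.0 ± 10.6 to 37.9 ± 2.01 CPM (-0.54, edgeR adjusted p = 0.0092), and Mmgt1 from 37.6 ± 4.08 to 27.3 ± 1.69 CPM (-0.46, edgeR adjusted p = 0.0054). Nipa2 fell by 0.34 (edgeR adjusted p = 0.0098) and Nipa1 by 0.67 (edgeR adjusted p = 0.038) on the log2 scale. The Nipa1 call ended under 9 of its 18 alternatives (edgeR adjusted p up to 0.57), among them those without any 1 library other than ad libitum replicate 2 and fasted replicate 4 (0.059 to 0.11).

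The magnesium channel kinase Trpm7 had a log2 fold change of -0.20 (edgeR adjusted p = 0.10) and the mitochondrial magnesium channel Mrs2 of 0.08 (edgeR adjusted p = 0.70). Those of Cnnm2, Cnnm3, Cnnm4, Mmgt2 and Nipal3 were -0.14, 0.73, -0.20, 1.16 and -0.10, none of them called. Without fasted replicate 4, Trpm7 (-0.24, edgeR adjusted p = 0.047) and Mmgt2 (1.37, edgeR adjusted p = 0.049) were called. The median of the 12 was -0.20, against 0.01 for all tested genes. With fasted replicate 4 as the only fasted library, 0 of the 12 were called by edgeR (2 were lower at an unadjusted p under 0.05), with 5.14% of all genes called there. There the log2 fold change of Slc41a1 was -0.50, of Magt1 -0.52 and of Slc41a2 -2.36. Among 117 other solute carriers, the large family of membrane transporters, 21 rose and 22 fell (36.8% called, against 24.9% of all tested genes; median 0.00). Only Slc13a5, a citrate transporter chosen here after its value was seen, lay below -2 among them. It went from 0.311 ± 0.293 to 0.0647 ± 0.049 CPM with overlapping groups (-2.18, edgeR adjusted p = 0.060). The 5 called carriers of lowest p were Slc25a22, a mitochondrial glutamate carrier (1.25), the acetyl-CoA transporter Slc33a1 (-0.95), the cationic amino acid transporter Slc7a2 (1.30), the nucleotide sugar transporter Slc35d2 (-0.76) and the fatty acid transporter Slc27a2 (1.09), with edgeR adjusted p of 1.2e-05, 9.9e-05, 1.9e-04, 2.0e-04 and 5.4e-04. Slc33a1 and Slc27a2 were read only from rows on the opposite strand.

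The enzymes beside Dpy19l3 differed little. Of 12 listed genes of C-mannosylation and of its mannose donor, 6 had a row and were tested. Of these 1 fell (16.7%, where 11.3% of all tested genes were called lower) and 0 rose, with a median of -0.03. None rose at an unadjusted p under 0.05 or by DESeq2 or limma-voom. The related enzyme gene Dpy19l1 went from 53.3 ± 7.07 to 58.0 ± 7.75 CPM (log2 fold change 0.12, edgeR adjusted p = 0.49), and Dpy19l4 from 12.3 ± 1.77 to 11.5 ± 0.538 CPM (-0.10, edgeR adjusted p = 0.54). Dpm2, a subunit of dolichol phosphate mannose synthase, fell from 14.1 ± 0.634 to 11.2 ± 0.256 CPM (-0.33, edgeR adjusted p = 0.013), while its catalytic subunit Dpm1 stood at 0.08 (edgeR adjusted p = 0.59). Dhdds and Nus1, the subunits of the enzyme that builds the dolichol chain, stood at -0.01 and -0.05 with edgeR adjusted p of 0.95 and 0.77. Of 7 tested genes for proteins with thrombospondin repeats, the kind of protein that C-mannosylation modifies, 1 rose and 0 fell. This is 14.3% called higher, where 13.6% of all tested genes were. None fell at an unadjusted p under 0.05 or by DESeq2 or limma-voom. The 1 gene that rose was also called by DESeq2 but not by limma-voom. That gene was Unc5c, a netrin receptor (0.0832 ± 0.0541 to 0.333 ± 0.199 CPM, log2 fold change 1.95, edgeR adjusted p = 0.046). Its value turned to -0.80 in fasted replicate 4, and it was not called under 11 of 18 alternatives (edgeR adjusted p up to 0.71), among them those without any 1 library other than fasted replicate 4 (0.068 to 0.12). Without fasted replicate 2, Adamts9 was called at -0.77 (edgeR adjusted p = 0.039), and with every row whose span covers an exon it was called at 0.48 (edgeR adjusted p = 0.025).

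Around Atp11a, the subunit gene moved and the other flippases did not pass the test. Tmem30a, which encodes the CDC50A subunit that ATP11A works with, fell from 86.7 ± 6.52 to 59.6 ± 5.59 CPM (log2 fold change -0.54, SE 0.09, edgeR adjusted p = 0.0021), without overlap. Its adjusted p was 0.096 in fasted replicate 4 alone, where the log2 fold change was -0.46. Tmem30b, the gene of another subunit of this family, went from 1.59 ± 0.210 to 2.31 ± 0.585 CPM (0.54, edgeR adjusted p = 0.069). It was called without fasted replicate 4 (0.68, edgeR adjusted p = 0.0059), when 18.6% of all genes were called higher. Of the P4-ATPases, Atp8a1 stood at 0.15 (edgeR adjusted p = 0.72) and Atp9b at 0.05 (edgeR adjusted p = 0.75). The list had a median of 0.10 with 1 of 4 called (25.0%, against 24.9% of all tested genes). Of 5 tested scramblases, which let phospholipids cross the membrane in either direction, 2 fell with edgeR and DESeq2 and 1 with limma-voom, where edgeR called 11.3% of all tested genes lower. Tmem41b, a scramblase of the endoplasmic reticulum, went from 18.9 ± 1.65 to 11.5 ± 0.923 CPM (-0.72, edgeR adjusted p = 5.0e-04; -0.67 and adjusted p = 0.025 in fasted replicate 4), and Ano6, a scramblase of the plasma membrane, from 7.82 ± 1.43 to 5.77 ± 0.596 CPM (-0.44, edgeR adjusted p = 0.039). The Ano6 call ended under 10 of 19 alternatives, among them those without any 1 library other than ad libitum replicate 2 and fasted replicate 4 (edgeR adjusted p 0.058 to 0.11).

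**Figure D3:**
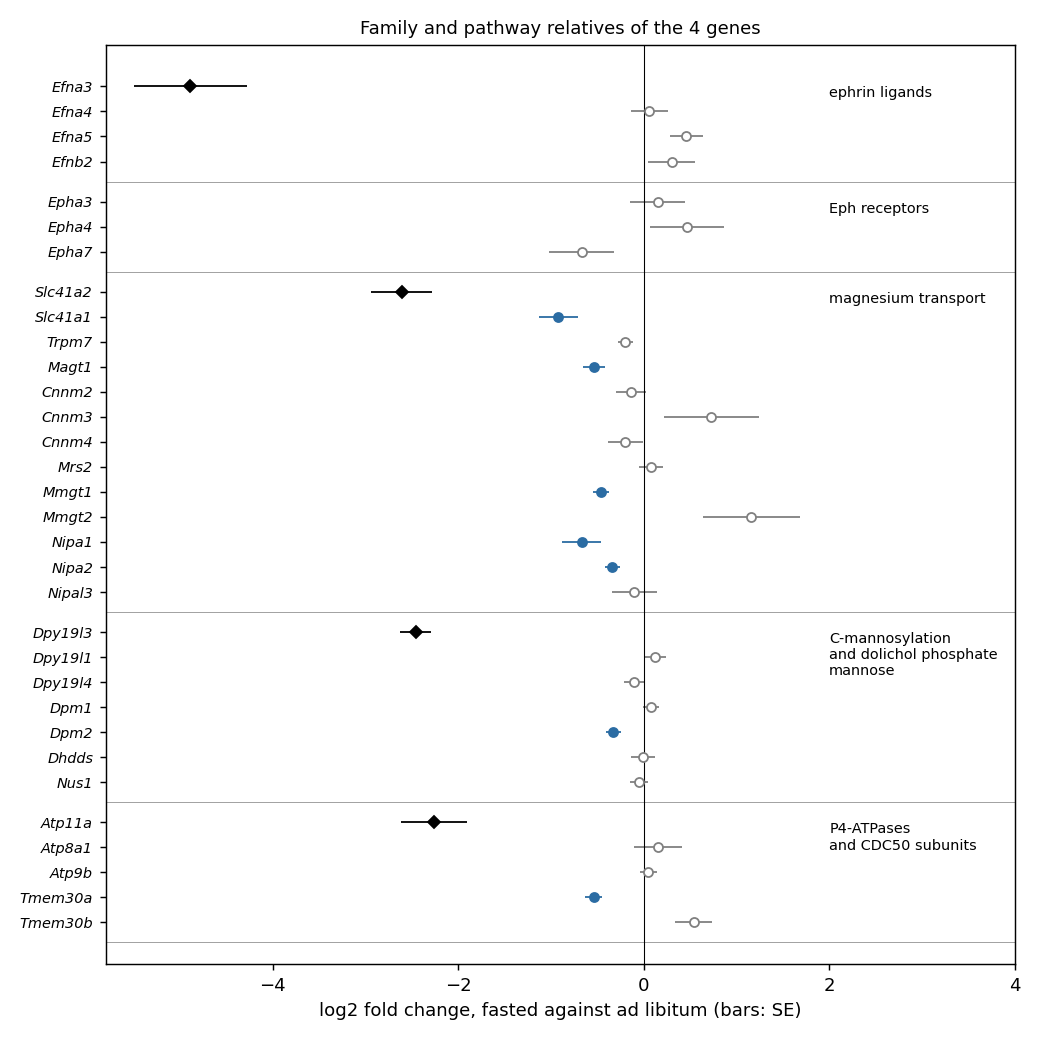
Log2 fold change, fasted against ad libitum, with its SE, of the tested genes in 5 lists: ephrin ligands, Eph receptors, magnesium transport, C-mannosylation with its mannose donor, and P4-ATPases with their subunits. Black diamonds are the 4 genes, filled blue circles are genes called lower and open circles genes not called. The diamonds lie between -4.89 and -2.26, and the largest called fall of another gene plotted is that of Slc41a1 at -0.92.

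The genes most like each of the 4 over the 8 libraries were picked by Pearson's r of log2 CPM among 5085 protein-coding genes with a mean of at least 1 CPM, 3 for each. These libraries share their 2 groups, and the r are a description with no test. Slc36a1, a lysosomal amino acid transporter, led the list for Efna3 (r = 0.987), Slc41a2 (0.991) and Atp11a (0.992). It gave 16.2, 11, 18.4 and 15.5 CPM in ad libitum and 7.87, 7.42, 7.58 and 8.34 CPM in fasted livers, so it kept the order of the fed mice with a smaller difference (log2 fold change -0.97). Ly6e, a small lipid-anchored surface protein gene, followed Atp11a (r = 0.980), with 252, 127, 454 and 235 CPM against 63.0, 63.7, 75.5 and 68.0 CPM. Garnl3 was close to Efna3 (r = 0.986), with 32.4% of its ad libitum level left in the fasted group, and so was Slc41a2 itself (0.986). The transcription factor gene Tcf4 (r = 0.989, 73.6% left) and the transporter-like gene Mfsd6 (0.987, 56.1% left) were close to Slc41a2, and Efna3 was close to Atp11a (0.982).

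Dpy19l3 kept other company. Sort1, which encodes the sorting receptor sortilin, was nearest (r = 0.997). It gave 9.81, 8.93, 11.2 and 9.49 CPM in ad libitum and 3.73, 3.07, 3.12 and 3.70 CPM in fasted livers, 34.6% of the ad libitum level. The kinase gene Map3k13 (r = 0.992, 55.5% left) and Pik3r3, a regulatory subunit of phosphoinositide 3-kinase (0.991, 27.2% left), came next. In none of these 3 was ad libitum replicate 2 as low against the other fed mice as in Efna3, at 0.910 of their median for Sort1, 0.956 for Map3k13 and 1.36 for Pik3r3.

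**Figure D4:**
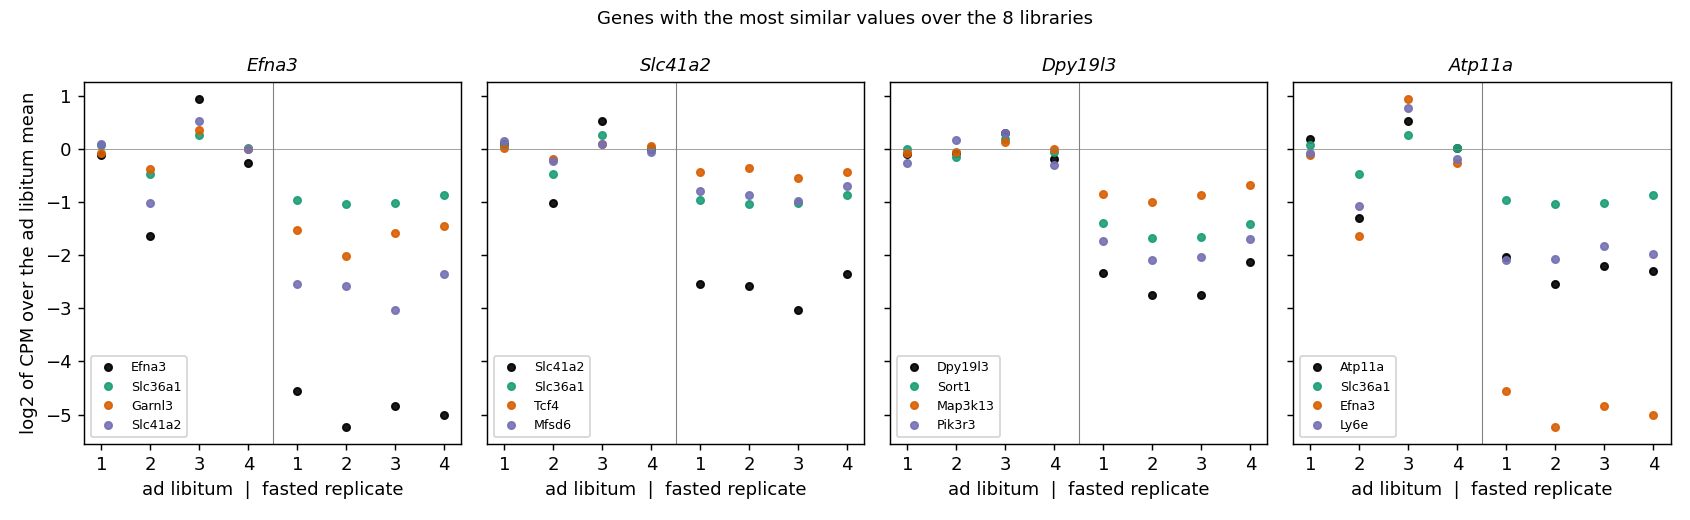
Log2 of the CPM over the ad libitum mean for each of the 4 genes (black) and the 3 genes of most similar values (coloured), in the 8 libraries. The points of Efna3, Slc41a2, Atp11a and their nearest genes dip at ad libitum replicate 2, those of Dpy19l3 and its nearest genes dip less or not at all there, and for each gene all its fasted points lie below its ad libitum ones.

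The levels of liver cell type markers are given here as values, and 0 of the 7 listed red cell markers had a row. Summed over the genes with a row, Kupffer cell markers stood at 3.92 to 5.44 CPM in the ad libitum libraries and 3.45 to 3.95 in the fasted ones (2 of 12 markers tested), endothelial markers at 26.8 to 30.9 and 24.7 to 33.4 (6 of 12), and lymphoid markers at 5.80 to 9.45 and 5.26 to 8.35 (2 of 10). Cholangiocyte markers were at 1.18 to 2.17 and 1.17 to 1.70 CPM (3 of 10), stellate cell markers at 29.8 to 49.0 and 37.0 to 84.7 (8 of 12), and hepatocyte markers at 521 to 627 and 860 to 1040 (6 of 18). The higher fasted sum of the hepatocyte markers came from Cps1, at 292 ± 57.3 CPM in ad libitum and 734 ± 75.3 CPM in fasted livers. Hnf4a and Ahsg were also higher, while Ttr (64.6 ± 4.84 and 26.5 ± 1.37 CPM) and Trf were lower. Fgg, at 171 ± 66.9 and 106 ± 39.9 CPM, had overlapping groups and was not called (log2 fold change -0.69, edgeR adjusted p = 0.29). Among the stellate cell markers the higher fasted sum came from Reln, at 9.37 ± 2.79 CPM in ad libitum and 42.2 ± 21.2 CPM in fasted livers (11.3 CPM in fasted replicate 4), while Lrat stood at 8.84 ± 3.19 and 4.70 ± 0.738 CPM. Their calls were 3 up and 2 down among hepatocyte markers, 1 down among Kupffer cell markers, 1 up and 2 down among stellate cell markers and 1 up among endothelial markers, where 13.6% of all tested genes were called up and 11.3% down. Most defining markers, Alb and Clec4f among them, have no row and were not analysed here. The part of cell mixture in the values of the 4 genes was not tested.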

How the data were processed

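Per the labels, liver RNA of 8 mice was sequenced as stranded total RNA and read with bcl2fastq 2.17 and BWA on mm10. The counting tool is not given in the sources used here, nor whether strand was used. In the deposited table are, per the file headers, raw read counts and RPKM for each library, with length, number of exons and a coding score per row, values of other kinds that belong to no library. Counts were used. RPKM served to check library totals: the mitochondrial 16S rRNA cell is empty in ad libitum replicate 3 (26.0 to 31.6% of reads otherwise or by implication), so this row was left out of totals and tests.

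Rows were matched to GENCODE mouse release 21 by exon. Of 38249 rows with several exons, 33001 match no GENCODE transcript, and for them only the first and last base were used. A coding gene took rows on either strand, a non-coding gene rows on its own strand. Counts per gene and per row were compared with edgeR 4.0.16 in R 4.3.3 (quasi-likelihood F test, robust, two-sided; TMM; filterByExpr; Benjamini-Hochberg over all features; adjusted p under 0.05). Replicates are biological per the labels. The 4 genes, the gene lists and the tests were chosen with earlier results of these data known. The genes named are the 4 genes, their rows and tested neighbours, every tested relative in 5 lists, the called members of the other pathway lists (at most 5 of lowest p each) and the 3 genes of most similar values. Alternatives were RLE scaling, no TMM, DESeq2 1.42.0, limma-voom (limma 3.58.1), 2 other low-count filters, a replicate block, each library left out, fasted replicate 4 alone through a term for the other 3 (a lone library assumed to vary like the others), 1 row per gene and same-strand rows. Figures used matplotlib 3.10.9. Scripts were tested on simulated data.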

Additional observations from a re-analysis of the deposited data

Results flagged for a closer look

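In a group of 4 libraries, a library was singled out where its gap to the nearest other was past Dixon's 95% limit as a share of the range of the group. This was tested in 122 groups of values and met in 7, and chance meets it in about 1 in 20 groups. The longer opposite-strand row over Efna3 was highest in fasted replicate 1, at 0.472 CPM against 0.197 to 0.244 in the other fasted libraries. One Gm26790 row near Dpy19l3 was highest in fasted replicate 4, at 5.13 CPM against 3.13 to 3.17. Efna4, and the neighbour row of Efna3 from which it is read, was lowest in ad libitum replicate 2, at 0.668 CPM against 0.822 to 0.843. Dhdds was highest in fasted replicate 1, at 6.59 CPM against 5.06 to 5.29. Slc7a2 was highest in ad libitum replicate 1, at 322 CPM against 214 to 228. Slc27a2 was lowest in ad libitum replicate 3, at 98.4 CPM against 132 to 134. None of the 4 genes met this for its summed level.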

How the results depend on the processing

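The log2 fold changes of Efna3, Slc41a2, Dpy19l3 and Atp11a stayed negative under every alternative that gave a value. Leaving out 1 library gave -5.19 to -4.36 for Efna3, -2.84 to -2.39 for Slc41a2, -2.59 to -2.35 for Dpy19l3 and -2.52 to -2.04 for Atp11a. Same-strand rows alone give no value for Efna3. Dpy19l3 moved to -2.13 in fasted replicate 4. The replicate numbers did not pair the libraries (correlations of their deviations 0.00 to 0.04). With the replicate number as a block the genes had -4.64, -2.53, -2.47 and -2.14, and 2491 genes were called.

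Of all genes 3272 were called (1785 up, 1487 down), 674 in fasted replicate 4 and 1981 to 4358 with 1 library left out, and limma-voom called 1157 up and 1381 down. Of all rows 7033 were called, 4661 without TMM, 11275 with no low-count filter, 1344 in fasted replicate 4 and 4158 to 11295 with 1 library left out. Of the relatives in the 8 pathway lists other than solute carriers 10 were called, 6 without TMM, 1 in fasted replicate 4 (Tmem41b) and 7 to 15 with 1 library left out. Of the 3 neighbour rows called, 1 was called without TMM, 1 in fasted replicate 4 and 1 to 4 rows with 1 library left out. Unc5c turned to -0.80 in fasted replicate 4. Where every row whose span covers an exon was counted, a rule added after the data were seen, Chn1 turned to 0.90 and Adamts9 to 0.48, both called higher. The causes were not tested. Low counts kept 12 of the 19 neighbour rows out of the test.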
